A study of Homo sapiens with 6 samples.

Results

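The MYC, MAX and MXD network was described from the RNA of 4 cell lines of atypical teratoid rhabdoid tumour (AT/RT), a childhood brain tumour marked by loss of SMARCB1. Its 10 members were taken by name, as MYC, MYCN, MYCL, MAX, MXD1, MXD3, MXD4, MXI1, MNT and MGA, among 36532 genes in the transcript files, and each name matched 1 gene identifier. All of the cell lines (CHLA 02, 04, 05 and 06) were untreated and grew in suspension in DMEM:F12 with EGF, bFGF and B-27 supplement. Total RNA was sequenced as 6 libraries, with 2 technical replicates each of CHLA 04 and CHLA 06 and 1 library each of CHLA 02 and CHLA 05. Each cell line was 1 biological sample, the libraries include no cells with SMARCB1 restored, and no difference between cell lines could be tested. The SD values are between technical replicates, and the spread between cultures was not measured.

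The MYC proteins are transcription factors that bind DNA only as dimers with MAX, and the pair recognises the E-box CACGTG and activates genes of growth, ribosome assembly and metabolism. The MXD proteins, MXI1 and MNT compete for the same partner and the same E-box, and bring the SIN3 corepressor and histone deacetylases to it. MGA is a large MAX partner that belongs to the variant Polycomb complex PRC1.6, which silences germline genes. MYCN is best known from neuroblastoma and from neural progenitors, MYCL from small cell lung cancer, and SMARCB1 is a known binding partner of MYC.

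The repressors MXD1, MXD3, MXD4 and MXI1 shared a feature of structure that their names do not give. Each had a single 30-base exon, coding in the GENCODE annotation and followed in at least 1 of the gene's transcripts by an exon of 115 bases. The exon codes for part of the basic region, the stretch of the protein that touches the E-box, and it is shown here because transcripts with and without it were both counted in MXD1, MXD3 and MXI1. MAX had an alternative coding exon of 27 bases just before its own basic region. The sequences are from the GRCh38 genome, 5′ to 3′ on the strand of the gene. Capitals mark the 16 bases that were the same in all 4 repressor genes, and the MAX exon, a different exon, was not aligned with them.
MXD1: aTCaactCACAAtGAaaTgGAgAAGaataG
MXD3: gTCagtgCACAAtGAacTgGAgAAGcgcaG
MXD4: gTCttcaCACAAcGAgcTaGAaAAGcacaG
MXI1: aTCtacaCACAAtGAgcTgGAaAAGaatcG
MAX: gaagagcaaccgaggtttcaatctgcg

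These exons lie at chr2:69921736-69921765 (MXD1, plus strand), chr5:177310668-177310697 (MXD3, minus strand), chr4:2257982-2258011 (MXD4, minus strand), chr10:110244828-110244857 (MXI1, plus strand) and chr14:65101546-65101572 (MAX, minus strand). Between pairs of the 4 repressor genes, 19 to 24 of the 30 bases were identical, with the most between MXD1 and MXI1.

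The promoters of the members were searched for CACGTG, which reads the same on both strands. RefSeq promoters (GRCh38.p14, 250 bases before to 50 after a start) were at hand for 9 members and 14 starts, and 2 of the 14 windows held the motif, against 7.26% of 35116 promoters in the table. They were those of MXD4 and MNT, given here with the E-box in capitals. A match of letters does not show that the site is bound.
MXD4 (chr4:2262302-2262359, minus strand): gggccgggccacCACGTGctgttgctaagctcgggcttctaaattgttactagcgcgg
MNT (chr17:2401208-2401293, minus strand): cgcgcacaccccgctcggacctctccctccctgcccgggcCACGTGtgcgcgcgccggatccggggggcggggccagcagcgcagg

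The motif began 238 bases before the start of MXD4 and 193 bases before that of MNT. The windows of MYCN, MYCL, MAX, MXD1, MXD3, MXI1 and MGA did not hold these letters.

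Levels are given as TPM, read counts that the authors scaled by transcript length and to the same total in every library, so that they can be compared between genes. Reads were recovered from the TPM values, between 10265899 and 20520229 on transcripts per library, and intervals are exact Poisson intervals at the 95% level that cover counting error only. The TPM of a typical gene differed between libraries, and scaling each library by its median ratio to the geometric mean (factors from 0.909 in CHLA 06 to 1.11 in CHLA 04) moved the median difference over all genes, CHLA 06 minus CHLA 04, from -0.20 to -0.00336 on the log2(TPM + 2) scale. In bulk RNA, fewer cells that express a gene and less RNA per cell cannot be told apart.

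The MYC genes were the part of the network that differed most between the cell lines. CHLA 06 held MYC with almost no MYCN, CHLA 04 and CHLA 05 held MYCN with almost no MYC, and CHLA 02 held all 3 genes. In CHLA 06, MYC made up 98.7% and 98.9% of the summed TPM of the MYC genes. In CHLA 05, MYCN made up 91.1%. In CHLA 04, MYCN gave 63.8% and 61.0% and MYCL gave 35.8% and 38.2%. In CHLA 02, the shares were 60.4% MYC, 19.9% MYCN and 19.7% MYCL.

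**Figure D1:**
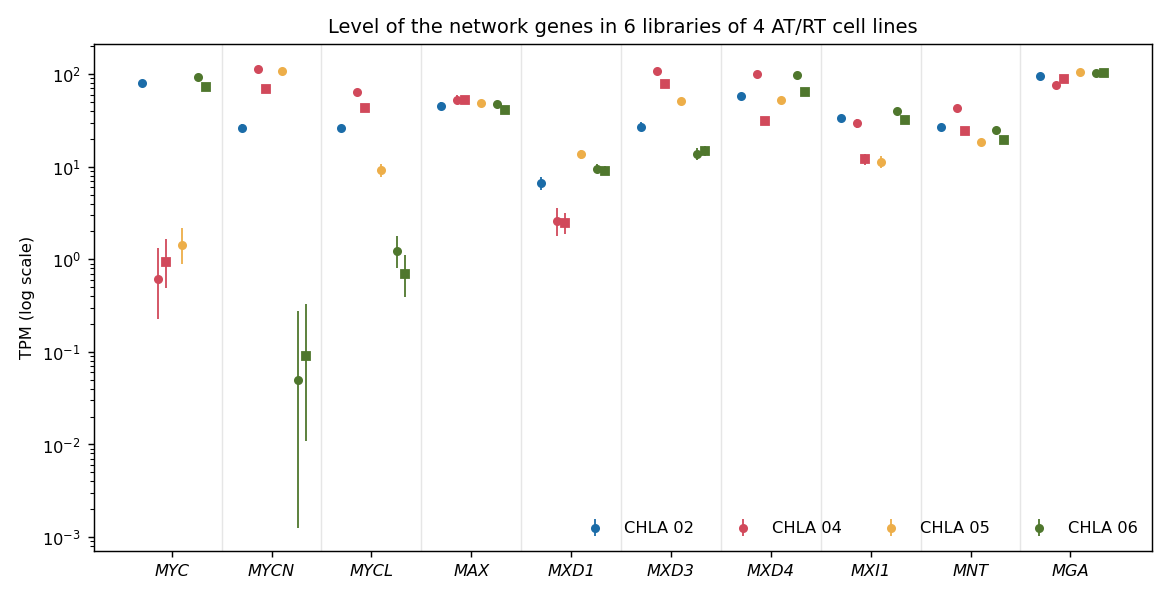
Level in TPM (log axis) of the 10 network genes in 6 libraries, coloured by cell line, with circles for the first or only library, squares for the second technical replicate and bars for 95% Poisson intervals of the counted reads. MYC, MYCN and MYCL spread over more than 1 decade between cell lines, while MAX stays between 41.3 and 52.8 TPM and MGA between 76.2 and 107 TPM.

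MYC (ENSG00000136997), the broadly expressed founder of the family, lies at chr8:127735434-127741434 on the plus strand. Its level was 79.7 TPM in CHLA 02, 0.612 and 0.937 TPM in CHLA 04, 1.44 TPM in CHLA 05, and 94.1 and 72.1 TPM in CHLA 06. The high libraries counted between 1127 and 1491 reads each, and the low ones 6, 12 and 21 reads. CHLA 02 lay between the technical replicates of CHLA 06, so these 2 cell lines could not be ordered. MYC in CHLA 06 was 107 times its level in CHLA 04 (interval 67.7 to 181) and 57.7 times that in CHLA 05 (interval 37.7 to 93.3). CHLA 05 was above both libraries of CHLA 04, but the counting intervals overlapped.

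MYCN (ENSG00000134323, chr2:15940564-15947007, plus strand), the family member of developing neural tissue, ran in the opposite direction in 3 of the 4 cell lines. It stood at 26.3 TPM in CHLA 02, 113 and 69.6 TPM in CHLA 04, 109 TPM in CHLA 05, and 0.0497 and 0.0900 TPM in CHLA 06. The values in CHLA 06 were 1 and 2 reads. With those 3 reads pooled, MYCN in CHLA 05 was 1554 times that in CHLA 06 (interval 531 to 7543), and MYCN in CHLA 02 was 377 times as high (interval 128 to 1835). CHLA 05 fell between the replicates of CHLA 04. CHLA 02 was lower than all 3 of those libraries and higher than both of CHLA 06.

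MYCL (ENSG00000116990, chr1:39895426-39902256, minus strand) formed a ladder in which all neighbours were separate. The highest cell line was CHLA 04 with 63.4 and 43.5 TPM, then CHLA 02 with 26.0 TPM, CHLA 05 with 9.17 TPM, and CHLA 06 with 1.22 and 0.691 TPM. The steps from line to line were 2.05, 2.84 and 9.58 times in TPM. CHLA 04 and CHLA 05, whose MYCN levels overlapped, differed by 2.31 in MYCL on the log2(TPM + 2) scale. The lowest value of CHLA 04 was above the highest of any other cell line.

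MAX (ENSG00000125952, chr14:65006174-65102695, minus strand), the partner that the other proteins share, hardly moved. It was 45.7 TPM in CHLA 02, 52.8 and 52.1 TPM in CHLA 04, 48.7 TPM in CHLA 05, and 47.3 and 41.3 TPM in CHLA 06. The highest cell line was 1.19 times the lowest, and 1.05 times after median-ratio scaling, which also changed the order of the cell lines. Counting intervals of neighbouring cell lines overlapped in every step of the order. The range of MAX over the cell lines, 0.24 on the log2(TPM + 2) scale, was at percentile 3.72 of the genes compared, so few genes were as level.

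MXD1 (ENSG00000059728, chr2:69897688-69942945, plus strand), a repressor known from differentiating cells, was the least abundant of the repressors by the mean over the cell lines. It was at 6.65 TPM in CHLA 02, 2.58 and 2.44 TPM in CHLA 04, 13.6 TPM in CHLA 05, and 9.54 and 9.09 TPM in CHLA 06. All 4 cell lines were separate beyond counting error, with CHLA 04 lowest and CHLA 05 highest, 5.43 times apart in TPM. In CHLA 05 it was above MXI1. The order was not that of any MYC gene.

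MXD3 (ENSG00000213347, chr5:177301461-177312757, minus strand), the repressor linked to proliferating cells, was 27.1 TPM in CHLA 02, 108 and 79.0 TPM in CHLA 04, 51.3 TPM in CHLA 05, and 13.7 and 14.7 TPM in CHLA 06. The libraries of the 4 cell lines did not overlap, and CHLA 04 was 6.58 times CHLA 06. MXD3 and MXD1 thus had opposite extremes in CHLA 04, where MXD3 was highest and MXD1 lowest. Between 21.6% and 43.2% of MXD3 TPM was on 2 transcripts that run on into RAB24, its neighbour on the same strand, and is uncertain for that reason. Without them MXD3 remained past 2-fold between CHLA 04 and CHLA 06.

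MXD4 (ENSG00000123933, chr4:2247432-2262294, minus strand) showed how far 2 libraries of the same RNA could differ. It was 58.4 TPM in CHLA 02, 100.3 and 31.5 TPM in CHLA 04, 52.2 TPM in CHLA 05, and 96.6 and 63.5 TPM in CHLA 06. The replicates of CHLA 04 stood 3.19 times apart, further than the highest and lowest cell line (1.53 times), and spanned every other library. No order of CHLA 02, CHLA 04 and CHLA 06 could be read. Without the first replicate of CHLA 04, MXD4 was past 2-fold between CHLA 04 and CHLA 06, and with both it was not.

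MXI1 (ENSG00000119950, chr10:110207605-110287365, plus strand) was 33.9 TPM in CHLA 02, 29.4 and 12.0 TPM in CHLA 04, 11.3 TPM in CHLA 05, and 40.2 and 31.9 TPM in CHLA 06. Its highest means were in CHLA 06 and CHLA 02, though the interval of the first replicate of CHLA 04 overlapped that of CHLA 02, and CHLA 05 was lowest, 3.19 times below CHLA 06. CHLA 02 lay between the replicates of CHLA 06, and the counting interval of CHLA 05 overlapped that of the second replicate of CHLA 04. MNT (ENSG00000070444, chr17:2384060-2401118, minus strand), the broadly expressed MAX partner that resembles the MXD proteins, was 26.8 TPM in CHLA 02, 43.0 and 24.3 TPM in CHLA 04, 18.4 TPM in CHLA 05, and 24.8 and 19.4 TPM in CHLA 06. The counting intervals of neighbouring cell lines overlapped throughout for MNT.

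MGA (ENSG00000174197, chr15:41621224-41773081, plus strand) was the most abundant member by its mean over the cell lines, 97.2 TPM. It was 96.2 TPM in CHLA 02, 76.2 and 89.1 TPM in CHLA 04, 107 TPM in CHLA 05, and 103 and 104 TPM in CHLA 06. CHLA 04 was lowest, 1.29 times below CHLA 05, and 1.48 times below CHLA 06 after median-ratio scaling, which put CHLA 06 first.

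All 10 members passed a mean of 1 TPM over the cell lines, as did 14827 genes in all. A gene was counted as past 2-fold when the means of 2 cell lines differed by at least 1 on the log2(TPM + 2) scale and their libraries did not overlap, a scale that understates the change of genes with low TPM. Between the highest and the lowest cell line, 6 of the 10 members were past 2-fold (MYC, MYCN, MYCL, MXD1, MXD3 and MXI1), against a background of 45.2% of all genes, and nothing is read from a count of 10 genes so near the background. The size of the difference was unlike that of most genes for the MYC genes, where the log2 range was 5.74 for MYCN, 4.94 for MYC and 4.23 for MYCL, at percentiles 98.5, 97.5 and 95.8 of the genes compared. The median range of the 10 members was 1.65, and that of all genes was 0.91.

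**Figure D2:**
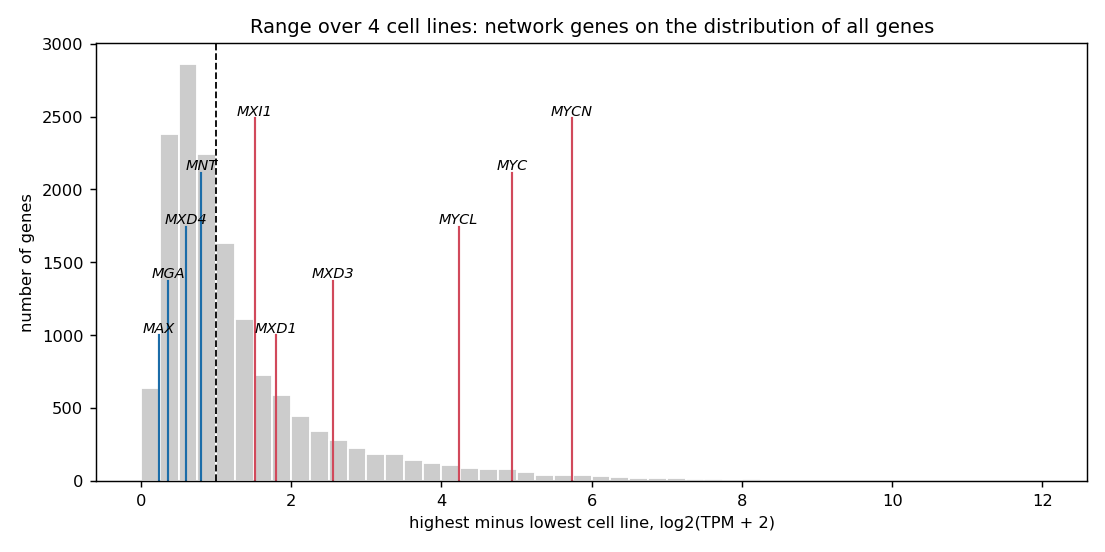
Number of genes (bars) by the difference between the highest and the lowest cell line in log2(TPM + 2), over the 14827 genes compared, with the 10 network genes as lines (red past 2-fold without overlap, blue not) and the dashed line at 2-fold. MYCL, MYC and MYCN lie in the thin right tail at 4.23 to 5.74, and MAX and MGA at the left end at 0.24 and 0.36.

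By pairs of cell lines, 3 members were past 2-fold between CHLA 02 and CHLA 04 (18.5% of all genes), with MYCN and MXD3 higher in CHLA 04 and MYC higher in CHLA 02. Between CHLA 02 and CHLA 05 there were 4 (21.1% of all genes), with MYCN higher in CHLA 05 and MYC, MYCL and MXI1 higher in CHLA 02. Between CHLA 02 and CHLA 06 there were 2 (10.2% of all genes), MYCN and MYCL, both higher in CHLA 02. CHLA 04 and CHLA 05 differed in 2 members (17.9% of all genes), MYCL higher in CHLA 04 and MXD1 higher in CHLA 05.

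CHLA 06 stood apart from CHLA 04 and from CHLA 05 by 5 members each. Against CHLA 04 (32.1% of all genes), MYC and MXD1 were higher in CHLA 06 and MYCN, MYCL and MXD3 lower. Against CHLA 05 (27.6% of all genes), MYC and MXI1 were higher in CHLA 06 and the same 3 genes lower. No pair of cell lines was past 2-fold in MAX, MXD4, MNT or MGA with all libraries used.

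The technical replicates give a measure of what such differences are worth. In CHLA 04, 2 members, MXD4 and MXI1, were past 2-fold between the replicates (4.26% of all genes), both lower in the second. In CHLA 06 none was (1.03% of all genes). The second replicate of CHLA 04 gave higher values to AT-rich and lower values to GC-rich transcripts, with a median of 0.26 on the log2(TPM + 2) scale for genes under 40% GC and -0.45 for genes over 65% GC. In CHLA 06 no GC class had a median beyond 0.04. The most abundant transcript of MXD4 had 63.5% GC and that of MNT 61.3%, but that of MXI1 had 43.7%, where the median of all genes was on the other side of 0. The part of GC content in the members' differences was not tested.

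**Figure D3:**
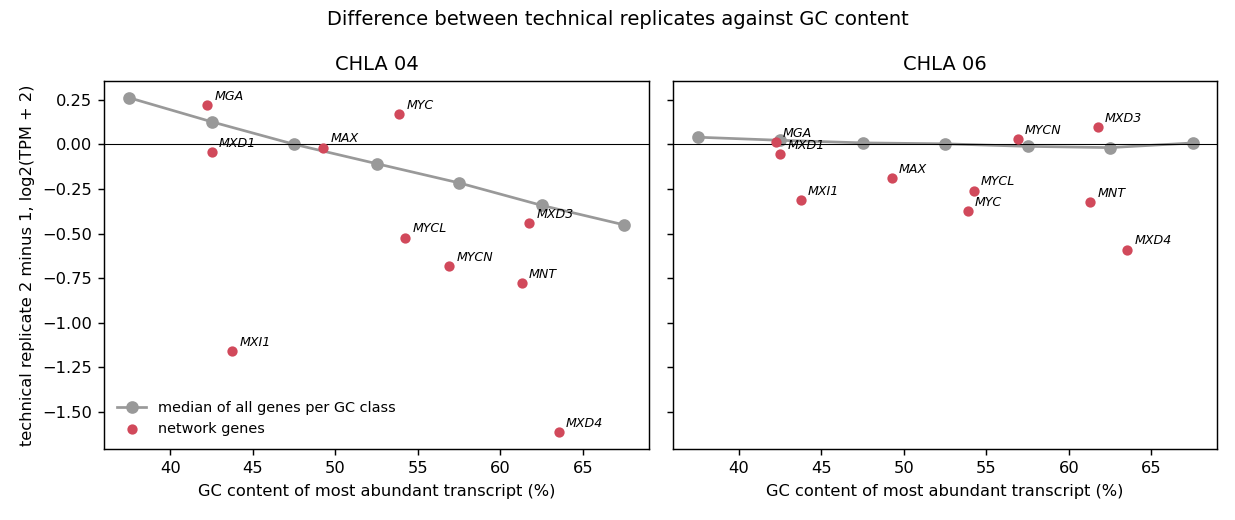
Second minus first technical replicate in log2(TPM + 2) against the GC content (%) of a gene's most abundant transcript, for CHLA 04 (left) and CHLA 06 (right), with network genes as red points and the median of all genes in each GC class as grey points (the open classes under 40% and over 65% are drawn at the ends). MXD4 at -1.61 and MXI1 at -1.16 lie lowest in CHLA 04, and no member passes -0.59 in CHLA 06.

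The sums over the activators and over the repressors were steadier than their members. MYC, MYCN and MYCL together came to 132 TPM in CHLA 02, 177 and 114 TPM in CHLA 04, 119 TPM in CHLA 05, and 95.3 and 72.9 TPM in CHLA 06. MXD1, MXD3, MXD4, MXI1 and MNT together came to 153 TPM in CHLA 02, 283 and 149 TPM in CHLA 04, 147 TPM in CHLA 05, and 185 and 139 TPM in CHLA 06. The repressors summed to more than the MYC genes in all 6 libraries. The ratio of MYC genes to repressors was 0.864 in CHLA 02, 0.811 in CHLA 05, 0.694 ± 0.0990 (SD, n = 2) in CHLA 04 and 0.521 ± 0.00686 (SD, n = 2) in CHLA 06. CHLA 06 was below every other library, while CHLA 02 and CHLA 05 differed by less than the SD of CHLA 04. When only the most abundant transcript of each gene was used, CHLA 04 reached 0.993 and CHLA 05 reached 1.40. Whether repressors exceeded activators in CHLA 05 thus depended on how transcripts were summed. MYCN has 1 transcript and kept its whole level in that setting, while the leading transcript of MXD3 held 13.6% to 44.4% of its TPM.

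**Figure D4:**
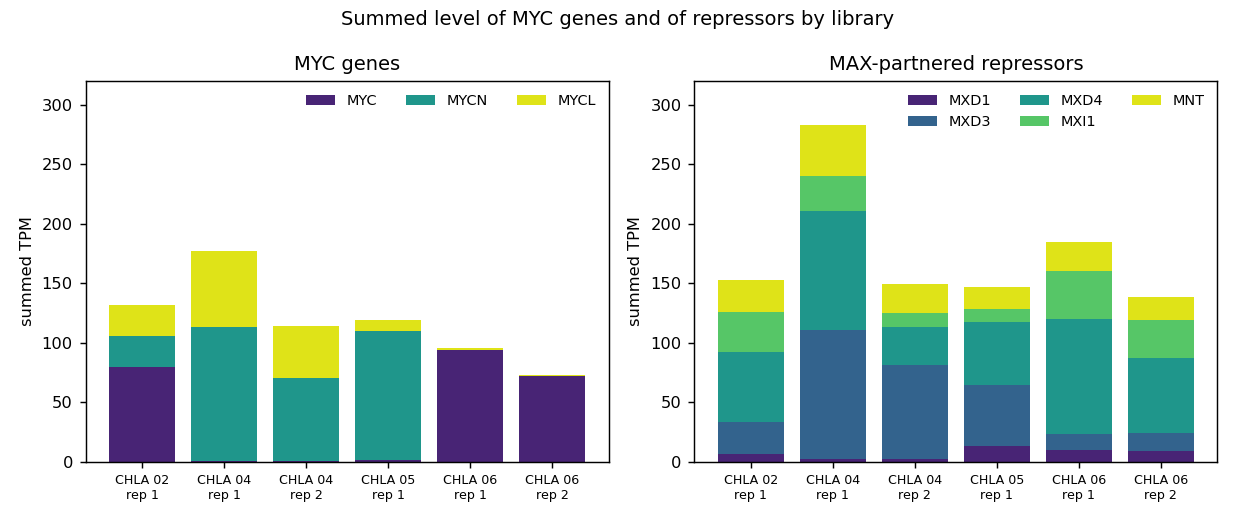
Summed TPM of the 3 MYC genes (left) and of the 5 repressors that pair with MAX (right) in each of 6 libraries, stacked by gene. The make-up of the left bars changes from MYC in CHLA 06 (72.9 and 95.3 TPM in all) to MYCN and MYCL in CHLA 04, and MXD3 and MXD4 fill most of each right bar.

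The make-up of the repressors differed too. MXD4 was the largest share in CHLA 02 (38.2%) and CHLA 06 (52.3% and 45.8%). In CHLA 05, MXD4 (35.6%) and MXD3 (34.9%) overlapped in their counting intervals and could not be ranked. In CHLA 04, MXD3 took 38.1% and 52.9% and MXD4 took 35.4% and 21.1%. In the first of these libraries their counting intervals overlapped, and without the transcripts that run into RAB24 MXD3 (81.0 TPM) was below MXD4 (100.3 TPM) there. In the second, MXD3 was above MXD4 without them too, at 61.9 against 31.5 TPM. MXI1 gave 22.1% in CHLA 02 and 21.7% and 23.0% in CHLA 06, but 10.4% and 8.08% in CHLA 04 and 7.71% in CHLA 05. Per unit of MAX, the MYC genes stood at 2.89 (CHLA 02), 3.35 and 2.19 (CHLA 04), 2.45 (CHLA 05), and 2.02 and 1.77 (CHLA 06), so transcripts of MYC genes outnumbered those of MAX in every library.

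The transcripts of a gene share reads, and how these were divided is not given in the sources used here, so shares of transcripts are the authors' division. MYCN had 1 transcript and MNT was carried mostly by ENST00000174618 (83.7% to 95.2%). MXD4 was carried by ENST00000337190 (74.3% to 82.1%) and MYCL by the 3-exon ENST00000397332 (55.1% to 64.9%). MYC in CHLA 02 and CHLA 06 was led by ENST00000524013, with 63.1%, 60.2% and 68.3%, and transcripts from the upstream start took 18.3%, 16.1% and 10.3%. The low MYC libraries had too few reads for such shares.

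Transcripts that hold the short exons printed above were counted among those that hold both neighbouring exons. For MAX, the share of this TPM with the 27-base exon was 55.6% (CHLA 02), 65.3% and 57.9% (CHLA 04), 63.2% (CHLA 05), and 61.4% and 58.9% (CHLA 06). Both forms were present in like parts everywhere, and the replicates of CHLA 04 spanned nearly the whole range. For MXD3 the 30-base exon was in 87.5% to 97.7%, not counting 2 transcripts that keep the introns around it and held 29.3% to 48.7% of all MXD3 TPM. For MXI1 it was in 90.8% (CHLA 02), 69.9% and 95.2% (CHLA 04), 82.5% (CHLA 05), and 92.4% and 91.6% (CHLA 06), so the replicates of CHLA 04 spanned every other library. For MXD4, 4 of 5 transcripts held it and the other began downstream of it, so no share was computed. For MXD1 it was in 84.3% (CHLA 02), 59.9% and 62.7% (CHLA 04), 89.2% (CHLA 05), and 59.0% and 74.3% (CHLA 06). Transcripts without the exon thus made up more of MXD1 in both libraries of CHLA 04 and CHLA 06 than in CHLA 02 or CHLA 05, from as few as 35 reads in a library of CHLA 04. Of the 2 MXD1 transcripts with the exon, 1 also has exons upstream in the gene SNRNP27. In CHLA 04 that transcript gave 0.825 of the 1.54 TPM and 1.01 of the 1.53 TPM with the exon. These rest on 3 and 6 reads, so the shares in CHLA 04 are uncertain.

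MXI1 has alternative first exons. Transcripts from the most upstream exon, mainly ENST00000332674, had a share of MXI1 TPM of 64.2% (CHLA 02), 57.0% and 42.3% (CHLA 04), 47.3% (CHLA 05), and 77.1% and 70.7% (CHLA 06). The 3 libraries with most MXI1, those of CHLA 02 and CHLA 06, had the largest upstream shares. The TPM from the other first exons was 12.1 (CHLA 02), 12.6 and 6.95 (CHLA 04), 5.97 (CHLA 05), and 9.19 and 9.36 (CHLA 06), a narrower range than for the whole gene. For MXD1, 20.5% to 41.5% of TPM lay on a transcript with exons upstream in SNRNP27, from 3 to 24 reads, and is uncertain.

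Transcripts near MYC differed much less than MYC itself or in another order. PVT1, the long noncoding RNA gene next to MYC, was 42.3 TPM in CHLA 02, 38.4 and 27.3 TPM in CHLA 04, 35.1 TPM in CHLA 05, and 62.4 and 57.4 TPM in CHLA 06. Its means had the order of those of MYC, and every library of CHLA 02 and CHLA 06 was above every library of CHLA 04 and CHLA 05. With all libraries used and no scaling, PVT1 was past 2-fold between no pair of cell lines. It was past 2-fold between CHLA 06 and CHLA 04 with median-ratio scaling or without the first replicate of CHLA 04. FAM84B, on the other side of MYC, was 34.7 TPM in CHLA 02, 50.9 and 33.2 TPM in CHLA 04, 19.6 TPM in CHLA 05, and 4.23 and 5.15 TPM in CHLA 06, lowest in CHLA 06. Of the 8 listed transcripts in this neighbourhood 3 passed 1 TPM (these genes and FAM49B), as did 14827 of all 36532 genes. CASC8 was listed at 0 in every library.

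Beside MYCN, the antisense transcript MYCNOS followed it at a low level, with 1.68 TPM in CHLA 02, 5.83 and 2.84 TPM in CHLA 04, 3.84 TPM in CHLA 05, and 0 in both libraries of CHLA 06. The library kit was stranded, but whether the counting used the strand is not given in the sources used here, so reads of MYCN and MYCNOS may not be told apart. The flanking genes DDX1 (113 to 183 TPM) and NBAS (34.9 to 43.4 TPM) were past 2-fold between no cell lines. FAM49A was 0.111 to 1.81 TPM, lowest in CHLA 06, and MYCNUT was listed at 0.

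Most of the genes that MYC is known to activate were level across the cell lines. Of the 30 on the list, all passed 1 TPM, 6 were past 2-fold between the highest and the lowest cell line (20%, against 45.2% of all genes), and their median range of 0.60 on the log2(TPM + 2) scale was below the 0.91 of all genes. NPM1, a nucleolar chaperone, was the most abundant by the mean over the cell lines, at 1271 TPM in CHLA 02, 606 and 969 TPM in CHLA 04, 817 TPM in CHLA 05, and 1841 and 1741 TPM in CHLA 06. LDHA, which makes lactate, and the cell cycle gene CCND2 were highest in CHLA 06 as well, CCND2 with 145 and 162 TPM against 5.95 and 2.95 TPM in CHLA 04. For all 3 genes every library of CHLA 02 and CHLA 06, the cell lines with high MYC, was above every library of CHLA 04 and CHLA 05. The list of 30 as a whole did not share this split. POLR1B and WDR43 showed it too, while TFRC, NOP56, RRP9, SRM, DKC1 and SLC7A5 showed the reverse in every library. CHLA 04, with low MYC and high MYCN, was the highest cell line for 12 of its genes, and for 5340 of the 14827 genes compared. CHLA 05, with low MYC and high MYCN too, ranked first for 5 of the 30, and for 4375 of the genes compared. CHLA 06 ranked first for 10 (3500 of the genes compared) and CHLA 02 for 3 (1612 of the genes compared). CHLA 02 ranked last for 12 of the 30, and for 2527 of the genes compared.

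TFRC, the transferrin receptor, had the largest range of the 30 genes and ran opposite to NPM1, LDHA and CCND2, and was above NPM1 in CHLA 04 and CHLA 05. It was 525 TPM in CHLA 02, 1442 and 1543 TPM in CHLA 04, 1348 TPM in CHLA 05, and 38.4 and 32.2 TPM in CHLA 06. SLC7A5, an amino acid transporter, was 170 TPM in CHLA 05 and 30.3 to 38.4 TPM in the other libraries, and SRM, of spermidine synthesis, was also highest in CHLA 05. TERT was the least abundant, at 0.449 to 4.20 TPM. The ribosome assembly genes NCL, NOP56, NOP58 and GNL3 were past 2-fold between no cell lines. The nucleolar NPM1 was past 2-fold between CHLA 06, its highest cell line, and CHLA 04, its lowest.

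Of 8 genes known to be repressed by MYC, 5 were past 2-fold (against 45.2% of all genes), with a median range of 1.24 against 0.91, and nothing is read from a count of 8 genes. CDKN1A, the p21 cell cycle inhibitor and the most abundant of them, was 126 TPM in CHLA 02, 101 and 105 TPM in CHLA 04, 258 TPM in CHLA 05, and 178 and 209 TPM in CHLA 06. Of the 5, CDKN1A, THBS1 and PDGFRB were highest in CHLA 05, CEBPA in CHLA 04 and GADD45A in CHLA 06. Of all 8, 4 were highest in CHLA 04, 3 in CHLA 05 and 1 in CHLA 06. Over the 14827 genes compared, these cell lines were highest for 5340, 4375 and 3500 genes. NDRG1 was the least abundant by its mean, at 1.66 to 6.18 TPM. THBS1 was 53.8 TPM in CHLA 05 and 4.96 to 23.4 TPM elsewhere.

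**Figure D5:**
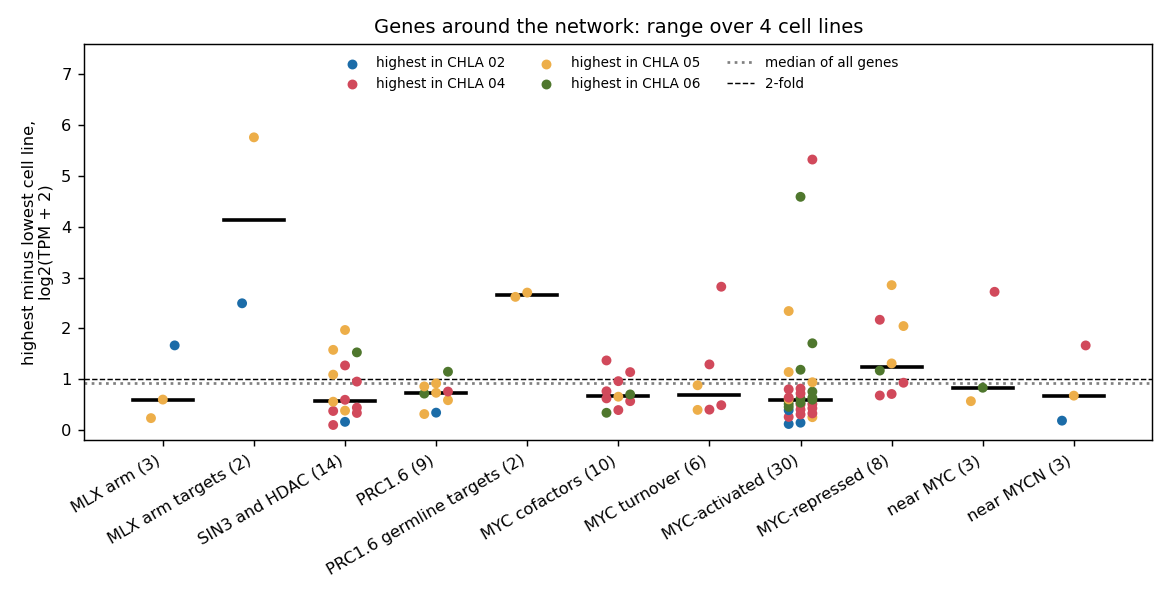
Difference between the highest and the lowest cell line in log2(TPM + 2) for genes around the network that passed a mean of 1 TPM (number in brackets), coloured by the cell line with the highest level, with black bars for list medians, a dotted line for the median of all genes (0.91) and a dashed line at 2-fold. The 30 MYC-activated genes lie mostly below 2-fold, with TFRC and CCND2 far above.

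Of 10 cofactors of MYC on chromatin, 2 were past 2-fold (20%, against 45.2% of all genes), ZBTB17 (MIZ-1, through which MYC represses) and the acetyltransferase KAT5, both highest in CHLA 04. Of the 10, 7 were highest in CHLA 04, as were 5340 of the 14827 genes compared. ZBTB17 was 47.3 TPM in CHLA 02, 120 and 79.6 TPM in CHLA 04, 66.4 TPM in CHLA 05, and 39.5 and 35.3 TPM in CHLA 06. EP400 was the most abundant, at 115 to 154 TPM. SMARCB1, the gene whose loss marks AT/RT, was the least abundant, at 13.5 TPM in CHLA 02, 26.2 and 22.1 TPM in CHLA 04, 16.3 TPM in CHLA 05, and 17.3 and 16.2 TPM in CHLA 06, which says nothing of its protein. The study describes these cell lines as lacking SMARCB1 expression, while reads were counted on the gene in every library. Whether those transcripts were intact was not examined.

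Of 6 regulators of MYC protein turnover, 2 were past 2-fold (33.3%, against 45.2% of all genes), both with their highest mean in CHLA 04. FBXW7, the ubiquitin ligase subunit that marks MYC and MYCN proteins for destruction, was 104 TPM in CHLA 02, 203 and 140 TPM in CHLA 04, 133 TPM in CHLA 05, and 20.9 and 24.1 TPM in CHLA 06. Both libraries of CHLA 06 were lowest, while CHLA 02, whose MYC could not be told from that of CHLA 06, was nearer to CHLA 05. The other was SKP2, whose level in CHLA 05 (122 TPM) lay between the replicates of CHLA 04 (103 and 142 TPM), so these cell lines could not be ordered. HUWE1 was the most abundant, at 335 to 552 TPM, and USP28 the least abundant by its mean, above FBXW7 in CHLA 06, at 29.7 to 52.6 TPM.

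Of 14 SIN3 and histone deacetylase genes, through which the MXD proteins and MNT repress, 5 were past 2-fold (SIN3B, HDAC1, HDAC2, SAP30 and RBBP7; 35.7%, against 45.2% of all genes), with a median range of 0.57 against 0.91. HDAC1 was 218 TPM in CHLA 02, 151 and 147 TPM in CHLA 04, 116 TPM in CHLA 05, and 342 and 332 TPM in CHLA 06. HDAC2 ran the other way, with 136 TPM in CHLA 05 and 65.1 and 60.4 TPM in CHLA 06. SIN3A, at 72.8 to 101 TPM, was past 2-fold nowhere. RBBP7 was the most abundant of the list by its mean, at 113 to 391 TPM with CHLA 05 highest, and SAP30L the least abundant, at 9.56 to 22.9 TPM.

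Of 9 PRC1.6 partners of MGA, 1 was past 2-fold (11.1%, against 45.2% of all genes), RNF2, highest in CHLA 06 with 37.8 and 40.6 TPM and lowest in CHLA 04 with 12.8 and 20.5 TPM. CBX3 was the most abundant and PCGF6, the subunit that defines the complex, the least by its mean, at 11.1 to 24.1 TPM. Among 8 germline genes that PRC1.6 silences, 6 stayed below a mean of 1 TPM, SLC25A31 lowest. Of all 36532 genes, 14827 passed that mean, and nothing is read from a count of 8 genes. The other 2, MAEL and STAG3, were nearly confined to CHLA 05, with 10.3 and 11.1 TPM there and at most 1.17 TPM in any other library. MGA was 107 TPM in CHLA 05 and 76.2 to 104 TPM in the other libraries, and its part in the levels of these genes was not tested.

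The MLX arm pairs MLX with glucose-sensing partners and shares the E-box-like sites of the network. MLX was 44.5 to 60.7 TPM and MLXIP 12.1 to 20.5 TPM, and neither was past 2-fold. MLXIPL was 5.33 TPM in CHLA 02, 0.220 and 0.411 TPM in CHLA 04, 1.77 TPM in CHLA 05, and 3.84 and 6.21 TPM in CHLA 06. TXNIP, the best known target of the arm and a brake on glucose uptake, was 18.0 TPM in CHLA 02, 33.4 and 19.0 TPM in CHLA 04, 106 TPM in CHLA 05, and listed at 0 in both libraries of CHLA 06. ARRDC4, the other target, was 33.1 to 42.1 TPM in CHLA 02, CHLA 04 and CHLA 05 and 7.71 and 3.97 TPM in CHLA 06.

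By rule, the 3 genes whose profile over the 4 cell lines was nearest to each MYC gene were named, from Euclidean distances of centred log2(TPM + 2) values. With 4 points per gene and 14827 genes, near profiles are to be found for any gene, and no shared control follows from them. For MYC they were RP11-566K19.6 (distance 0.22), CCDC102B (0.28) and LAYN (0.33). For MYCN they were IRS2 (0.31), CHST2 (0.38) and MARCKS (0.40), where MARCKS was 108 TPM in CHLA 02, 495 and 378 TPM in CHLA 04, 630 TPM in CHLA 05, and 8.98 and 7.41 TPM in CHLA 06. For MYCL they were DTX4 (0.07), NRXN2 (0.18) and SOGA3 (0.22).

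Markers of AT/RT subgroups also differed between the cell lines, and their part in the levels of the MYC genes was not tested. From earlier work, the study places CHLA 02, CHLA 04 and CHLA 05 in the SHH subgroup. It places CHLA 06 in a group that falls into the MYC or the TYR subgroup. Of 5 markers of the SHH subgroup, in which MYCN is usually high, all 5 were past 2-fold (against 45.2% of all genes). Of these, 4 were lowest in CHLA 06, as were 5658 of the 14827 genes compared, and nothing is read from a count of 5 genes. GLI2, a transcription factor of the hedgehog pathway, was 37.4 TPM in CHLA 02, 167 and 126 TPM in CHLA 04, 147 TPM in CHLA 05, and 15.4 and 14.4 TPM in CHLA 06, while BOC, HES5 and DTX1 were lowest there too and PTCH1 was lowest in CHLA 02. Of the TYR subgroup markers, TYRP1 was 30.8 TPM in CHLA 02, 71.5 and 63.0 TPM in CHLA 06 and at most 0.0508 TPM in CHLA 04 and CHLA 05, and BMP4 divided the cell lines in the same way. MITF had its highest mean in CHLA 04, though CHLA 05 lay between the replicates of CHLA 04. OTX2 and DCT were under 1 TPM in every library, and TYR, the defining marker, was listed at 0. Of the markers of the MYC subgroup other than MYC, HOTAIR was listed at 0 and HOXB7 was at most 0.112 TPM. HOXC9 and HOXC10 were at most 3.30 TPM, but both were past 2-fold (against 45.2% of all genes). HOXC9 was 1.58 TPM in CHLA 02, 0.469 and 0 TPM in CHLA 04, 0.406 TPM in CHLA 05, and 3.30 TPM in both libraries of CHLA 06. HOXC10 was highest in CHLA 05, at 2.35 TPM, and lowest in CHLA 04. Of 9 markers of blood, endothelial and liver cells, 8 were under 1 TPM in every library, CD3E, AIF1 and HBB at 0, and CD68 reached 22.6 TPM in the second replicate of CHLA 06.

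LTR elements, counted by the authors in a separate mapping, played little part within the members. Only MAX (10 elements), MXI1 (2) and MGA (8) held any within their span. Those in MAX counted 1 to 12 reads per library, those in MGA 6 to 15, and those in MXI1 none. The reads in MGA fell on 1 intronic LTR45 element at chr15:41632269-41632744, on the strand of the gene, with LTR-scaled TPM of 14.6 (CHLA 02), 19.6 and 28.3 (CHLA 04), 32.3 (CHLA 05), and 21.5 and 12.1 (CHLA 06).

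The study asked about HERV-K (HML-2), a young endogenous retrovirus with LTR5_Hs as its LTR and HERVK-int as its internal part, and the share of LTR reads on it is given here. The share of LTR reads on HERVK-int was 0.436% (CHLA 02), 0.216% and 0.211% (CHLA 04), 0.532% (CHLA 05), and 0.641% and 0.796% (CHLA 06). That of LTR5_Hs was 0.430% (CHLA 02), 0.456% and 0.428% (CHLA 04), 0.583% (CHLA 05), and 0.455% and 0.458% (CHLA 06). HERVK-int was thus highest in CHLA 06 and lowest in CHLA 04, with CHLA 05 above CHLA 02, and LTR5_Hs was highest in CHLA 05. MYC was high in CHLA 06 and CHLA 02 and MYCN in CHLA 04 and CHLA 05, and the part of either gene in these shares was not tested.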

How the data were processed

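TPM per Ensembl transcript and, from a separate mapping, per RepeatMasker LTR element were deposited for 6 libraries of 4 cell lines. The authors trimmed reads with Trimmomatic and mapped them to GRCh38 with the CLCbio RNA-Seq tool under default settings (the submitters' processing notes also name CASAVA 1.8.2 and FastQC). LTR values were scaled over LTR elements alone and are compared with no gene value.

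Gene TPM was summed over the transcripts of a gene identifier. TPM times length fell within 0.05 of whole multiples of a step for at least 99.6% of transcript values above 0, and a step was taken as 1 read or read pair. The recovery and the 2-fold rule were tested on simulated data. Differences used log2(TPM + 2) and genes with a mean of at least 1 TPM. With 1 biological sample per cell line, no test was made. Named genes were all members, genes of lists by level and range, and the 3 nearest profiles to each MYC gene. Outside that rule, LDHA, SRM, SIN3A, SIN3B, HDAC2, POLR1B, WDR43, RRP9, DKC1 and 4 ribosome assembly genes were named after their values were seen. Members and lists were chosen with earlier results of these data known. Of the lists, 2 genes are not reported here and enter no count. Python 3.11.15, pandas 2.3.3 and scipy 1.17.1 were used.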

Additional observations from a re-analysis of the deposited data

How the results depend on the processing

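The number of members past 2-fold between the highest and the lowest cell line was 6 or 7 under 12 alternatives: pseudocounts of 0.1 and 1, the highest technical replicate, quantile normalization, median-ratio scaling, no filter, a mean of at least 5 TPM, each technical replicate left out in turn, and, added after seeing the data, MXD3 and MXD1 without their read-through transcripts. Leaving out a replicate gave 6 to 7. The share of all genes past 2-fold, 45.2% in the main setting, moved from 18.9% without a filter to 53.5% with a pseudocount of 0.1. It was 43.5% to 50.4% without single replicates. The steady count of members thus stood against a changing background, and nothing is read from it. For pairs of cell lines, the share over all genes was not computed under the alternatives. The 21 calls over pairs of cell lines became 21 to 25, and 21 to 25 without single replicates, with no call of those 21 lost or reversed. CHLA 04 and CHLA 05 went from 2 members to 5 with the highest technical replicate or without the second replicate of CHLA 04 (MXD3, MXI1 and MNT added), and CHLA 02 and CHLA 04 from 3 to 5 with either smaller pseudocount (MYCL and MXD1 added). Between the highest and the lowest cell line, MXD4 was added without the first replicate of CHLA 04, and MNT without the second or with the highest replicate. Calls over the lists went from 39 to between 36 and 44.

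The ratio of MYC genes to repressors, 0.864 (CHLA 02), 0.694 (CHLA 04), 0.811 (CHLA 05) and 0.521 (CHLA 06), depended on the transcripts used. With the most abundant transcript alone it was 0.890, 0.993, 1.40 and 0.465, and with recovered reads 0.583, 0.646, 0.691 and 0.298, since reads also count length. Without single replicates it was 0.624 to 0.764 in CHLA 04 and 0.516 to 0.526 in CHLA 06. CHLA 06 was lowest in each. Of 40 levels, 31 moved beyond their spread with the most abundant transcript, 8 with median-ratio scaling and 8 with quantile normalization. No paired analysis was possible because no result comes from a test and each cell line is 1 biological sample. At 1 and 2 reads, MYCN in CHLA 06 is known only within a wide counting interval.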
